A study of Mus musculus with 2 samples.

Results

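The 10 microRNA genes studied were Mir673, Mir493, Mir337, Mir540, Mir665, Mir431, Mir433, Mir127, Mir434 and Mir136. They lie in the proximal part of the imprinted Dlk1-Dio3 region on mouse chromosome 12, from the end of Meg3 to the stretch opposite Rtl1. They were chosen by symbol and place, and are 10 of 2202 microRNA genes counted. MicroRNA-seq was done on total RNA of adrenal gland tissue from C57BL/6J mice, in 1 group of 2 libraries that the labels number as biological replicates 2 and 1, with no genetic change or treatment named. One label calls the animals female, another says that sex was not collected, and age is given as unknown. Each library has a tissue sample of its own but the same donor identifier, and nothing states separate animals, so differences between the libraries may be technical.

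The Dlk1-Dio3 region carries genes used from only one parental chromosome. Dlk1, Rtl1 and Dio3 code for proteins and are expressed from the paternal chromosome, while the long non-coding RNAs Meg3, Rian and Mirg and the microRNAs are expressed from the maternal one. Rtl1 derives from a retrotransposon and is needed in the mouse placenta. The maternal transcript that runs opposite to it is the source of several microRNAs, which in mouse are known to direct cleavage of Rtl1 RNA because they match it along their whole length. A microRNA gene encodes a hairpin whose 5p and 3p arms can each give a mature microRNA, and bases 2 to 8 of that product, the seed, make the main contact with target RNAs.

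All 10 genes lie on the plus strand within 23399 bases of chromosome 12 (mm10). Mir673 at 109571990-109572080 starts 263 bases beyond the end of Meg3. It is followed by Mir493 at 109580233-109580315, Mir337 at 109585789-109585885, Mir540 at 109586080-109586146 and Mir665 at 109586314-109586407. These 5 genes lie between Meg3 and Rtl1 and outside both in the GENCODE M21 annotation. The other 5 lie opposite the protein-coding exon of Rtl1, which is on the minus strand: Mir431 at 109590447-109590537, Mir433 at 109591715-109591838, Mir127 at 109592846-109592915, Mir434 at 109594506-109594599 and Mir136 at 109595327-109595388. Their hairpins sit within the Rtl1 coding sequence, whose annotated range is 109590172-109595403. The same strand of this stretch also holds Mir3070a and Mir3070b, between Mir665 and Rtl1, and Mir432, between Mir434 and Mir136. They are not among the 10.

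The mature sequences of the 5 genes opposite Rtl1 are printed from RefSeq (GRCm38.p6, the mm10 assembly), because these letters set the match to Rtl1, with those of Mir665, whose scaled log2 ratio between the libraries was the farthest from 0 of the 10. Capitals mark the seed.
mmu-miR-431-5p: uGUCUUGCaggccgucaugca
mmu-miR-431-3p: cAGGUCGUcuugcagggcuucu
mmu-miR-433-5p: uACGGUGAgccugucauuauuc
mmu-miR-433-3p: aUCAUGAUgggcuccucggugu
mmu-miR-127-5p: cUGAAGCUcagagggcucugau
mmu-miR-127-3p: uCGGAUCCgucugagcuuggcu
mmu-miR-434-5p: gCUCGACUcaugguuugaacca
mmu-miR-434-3p: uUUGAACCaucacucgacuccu
mmu-miR-136-5p: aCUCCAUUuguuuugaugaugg
mmu-miR-136-3p: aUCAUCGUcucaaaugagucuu
mmu-miR-665-5p: aGGGGCCUcugccucuauccaggauu
mmu-miR-665-3p: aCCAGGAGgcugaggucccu

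Every mature product of Mir431, Mir433, Mir127, Mir434 and Mir136, 10 in all, had its full-length complement once in the Rtl1 transcript, and all 10 matches lay in the coding sequence. This follows from their position. None of the 10 mature products of the other 5 genes had a full-length complement there. The sites of miR-127-3p and miR-136-5p in Rtl1 RNA, with the bases that pair with the seed in capitals, show the match.
Rtl1 site of miR-127-3p: agccaagcucagacGGAUCCGa
Rtl1 site of miR-136-5p: ccaucaucaaaacaAAUGGAGu
The 20 mature products carried 20 different seeds, so the 10 genes hold no seed family among themselves. In 18 of the 20 the seed was found in no other of the 1738 mouse mature sequences in the RefSeq table. The exceptions were miR-673-5p, whose seed is shared with miR-6985-3p, and miR-540-3p, whose seed is shared with miR-6915-5p. No mature product came within 1 mismatch of a hairpin elsewhere in the table, and the nearest differed at 5 positions. That matters for the counts, since reads with several alignments are left out of them. The search covered hairpins in the table only, and matches elsewhere in the genome were not examined.

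The deposited counts accounted for 14457994 reads in replicate 2 and 18743064 in replicate 1, unmapped reads included. Of these, 6570375 (45.4%) and 9137907 (48.8%) fell on the sense strand of microRNA genes. A count of 0 allows up to 3 counts, 0.457 CPM in replicate 2 and 0.328 CPM in replicate 1, where CPM is counts per 1000000 of the library's counts over genes. Intervals and limits cover counting error only. The tables hold microRNA genes alone, so messenger RNAs that define adrenal cortex and medulla were not measured. Of microRNAs typical of a cell type or tissue, the endothelial Mir126a had 54325 CPM in replicate 2 and 61677 CPM in replicate 1. In the same order the 4 neuroendocrine genes summed to 51805 and 54062 CPM, most of this from Mir375, with a mean of 49445 CPM. The 5 of fibroblasts and smooth muscle summed to 15027 and 18908 CPM and the 4 measured of leukocytes to 1176 and 1319 CPM. The 3 erythroid genes summed to 295 CPM in replicate 2 and 144 CPM in replicate 1, the 4 of kidney to 118 and 112 CPM, and the liver microRNA Mir122 had 71.5 and 128 CPM. Those of striated muscle summed to 6.39 and 5.36 CPM, with 6 of 10 at 0, among them Mir1a-1 and Mir133a-1, which have identical copies. The part of these cells in the results was not tested, and in whole tissue fewer cells of a type and less RNA per cell cannot be told apart. Reads with several alignments are left out of every sum, so the sums do not rank the cell types.

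Each of the 10 genes reached 10 counts in replicate 2 and in replicate 1, against 18.3% of all microRNA genes in the tables. Together they took up 2.58% of the gene counts of replicate 2 (Clopper-Pearson 95% bounds 2.56 and 2.59) and 2.16% of those of replicate 1 (bounds 2.15 and 2.17), a mean of 2.37% ± 0.293 (SD, n = 2). Nearly all of the difference was in Mir127, since the other 9 genes held 0.609% in replicate 2 and 0.586% in replicate 1. The genes opposite Rtl1 accounted for 92.4% of the counts of the 10 in replicate 2 and 91.2% in replicate 1. The levels of the 10 genes ran over nearly 3 orders of magnitude.

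Mir127, one of the microRNAs known in mouse to cut Rtl1 RNA, stood far above the rest. It had 129183 counts in replicate 2 and 143895 in replicate 1, or 19661 and 15747 CPM (17704 ± 2768, SD, n = 2). By counted reads it ranked 14th of all microRNA genes in replicate 2 and 15th in replicate 1. Reads with several alignments, 36.0% of reads in replicate 2 and 35.9% in replicate 1, are left out of the counts. Genes with near copies can lose reads in this way, and the effect on this rank and on the shares was not tested. Mir127 held 76.4% of the counts of the 10 genes in replicate 2 and 72.9% in replicate 1, and its mean level was 8.27 times that of Mir433, the next gene.

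Mir433, the neighbour of Mir127 on its Meg3 side, had 2193 CPM in replicate 2 and 2089 CPM in replicate 1. Mir431, known in mouse muscle stem cells to lower the transcription factor Pax7, had 1357 CPM in replicate 2 and 1194 CPM in replicate 1. Mir434 had 535 and 577 CPM in replicates 2 and 1. Among the 10 genes, Mir136 was the lowest of those opposite Rtl1, at 54.9 CPM in replicate 2 and 102 CPM in replicate 1. Thus genes of the same strand within 5 kb of each other differed by 226-fold in mean level.

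Of the genes between Meg3 and Rtl1, Mir337 was the highest, with 1185 CPM in replicate 2 and 1212 CPM in replicate 1. Mir540 had 454 CPM in replicate 2 and 426 CPM in replicate 1. Mir673 had 210 and 216 CPM in the same order of libraries. In all 3 the libraries lay close together. Mir665 had 81.4 CPM in replicate 2 and 27.7 CPM in replicate 1, and so was clearly higher in replicate 2. Mir493, known from human cancer cells to lower the growth factor receptor IGF1R, was the lowest of the 10, at 18.9 CPM (124 counts) in replicate 2 and 20.5 CPM (187 counts) in replicate 1.

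**Figure D1:**
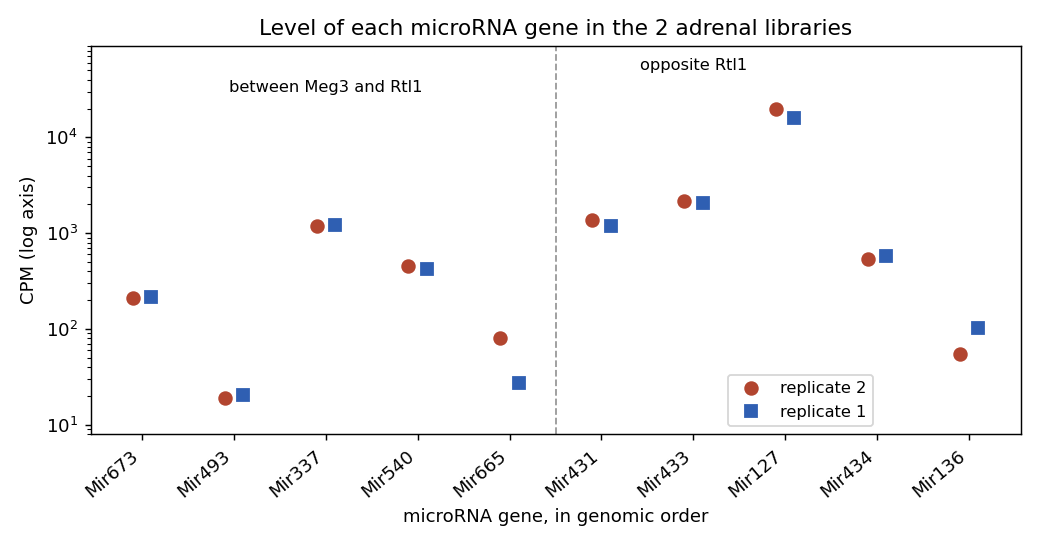
Level of each of the 10 genes in genomic order, in CPM on a log axis, with circles for replicate 2 and squares for replicate 1; the dashed line parts the genes between Meg3 and Rtl1 from those opposite Rtl1. Mir127 lies at 19661 and 15747 CPM, above all others, and the symbols part visibly at Mir665 and Mir136.

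In order of mean CPM the genes were Mir127, Mir433, Mir431, Mir337, Mir434, Mir540, Mir673, Mir136, Mir665 and Mir493. Of the 9 neighbouring pairs in this order, 7 had library values that lay apart. Mir431 and Mir337 overlapped, at means of 1276 ± 115 and 1199 ± 19.3 CPM (SD, n = 2), and so did Mir136 and Mir665, at 78.4 ± 33.1 and 54.6 ± 38.0 CPM. Both pairs changed places between the libraries: Mir431 led Mir337 and Mir665 led Mir136 in replicate 2, and the reverse held in replicate 1. A read covers a whole mature product, so CPM was not divided by hairpin length, which ran from 62 to 124 bases. Divided by it, only Mir434 and Mir540 changed places, at 591 and 657 CPM per 100 hairpin bases.

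The same region holds 55 further microRNA genes in the tables between the start of Meg3 and the end of Mir410, most of them in the cluster next to Mirg. Of these, 39 reached 10 counts in each library, while 10 were at 0 throughout. The 10 genes around Rtl1 held 44.1% of the region's counts in replicate 2 and 44.6% in replicate 1. Their median level was 498 CPM, beside 54.8 CPM over the other 55 genes, a list that includes hairpins annotated on the opposite strand. It also includes genes on the same strand and in the same stretch as the 10. Among them, Mir3070a and Mir3070b had means of 5.23 and 6.85 CPM, and Mir432 had 0 counts in both libraries. The medians thus set the chosen genes beside the rest, and do not compare stretches of the region. The genes of the region nearest in level to Mir127 were Mir411 at 7506 CPM in replicate 2 and 6700 CPM in replicate 1, Mir379 at 7567 and 4731 CPM, and Mir382 at 4154 and 3490 CPM. Mir127 was the most abundant gene of the region in both libraries.

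**Figure D2:**
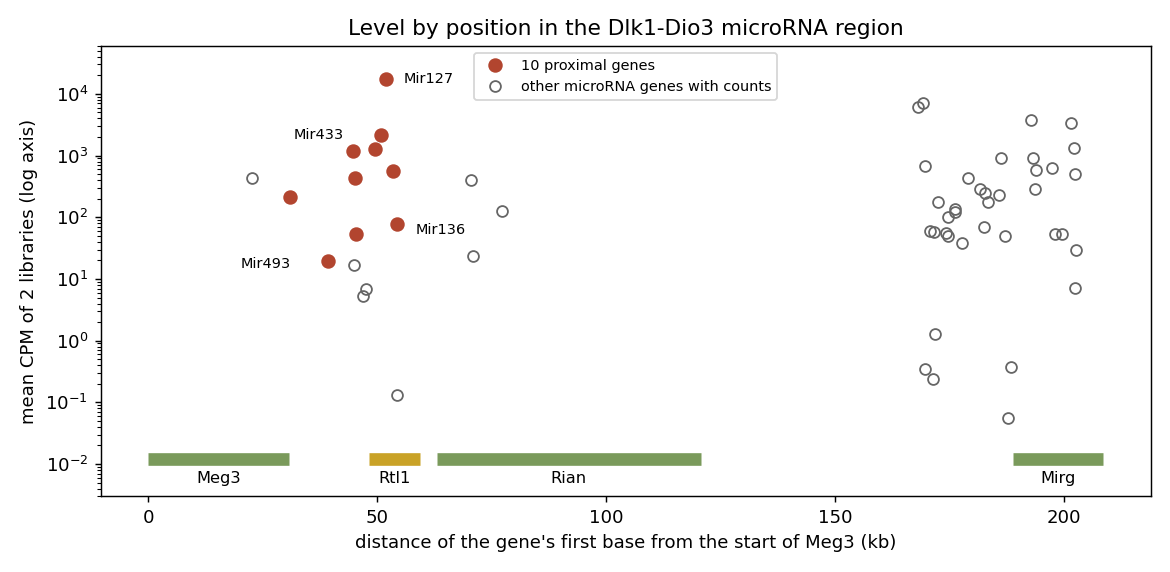
Mean CPM of 2 libraries on a log axis against the distance of each gene's first base from the start of Meg3 in kb, with filled circles for the 10 genes around Rtl1, open circles for other microRNA genes of the region with counts, and bars for the extent of Meg3, Rtl1, Rian and Mirg. The filled circles span 19.7 to 17704 CPM, and Mir127 lies above every gene of the distal cluster.

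With 1 group, the libraries could be set only against one another, which shows how far each level held between adrenal samples. Genes whose counts summed to 20 or more were compared by an exact two-sided binomial test on library sizes scaled by TMM, adjusted after Benjamini and Hochberg over 426 genes. This test knows counting error only and compares these 2 libraries, not conditions or animals. Of the 10 genes 7 passed at an adjusted p under 0.05, while 56.1% of all tested genes did. Among the 39 tested other genes of the region, 29 (74.4%) passed. Replicate 2 was higher for 3 of the 10 genes (background 25.8%) and replicate 1 for 4 (background 30.3%). Scaled by total counts, which raises all log2 ratios by 0.10, the split was 5 higher in replicate 2 and 2 higher in replicate 1, where the backgrounds are 35.2% and 21.8%. The median log2 ratio of replicate 2 over replicate 1 was -0.08 for the 10 genes, beside -0.03 over all tested genes and 0.02 over the 39 tested other genes of the region. The median absolute log2 ratio was 0.18, against 0.29 over all tested genes and 0.25 over the region's other genes. These medians and the shares of called genes cover unlike counts, since testing began at 20 summed counts and all 10 genes had at least 100 in each library.

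Mir665 and Mir136 had the log2 ratios farthest from 0 among the 10 genes. Mir665 had 535 counts in replicate 2 and 253 in replicate 1, a log2 ratio of 1.45 (exact 95% counting interval 1.23 to 1.67, adjusted p = 3.09e-42), or 2.74-fold higher in replicate 2. A ratio of this size or larger, in either direction, was found in 21 of the 426 tested genes (4.93%). Mir136 had 361 counts in replicate 2 and 930 in replicate 1, a log2 ratio of -0.99 (interval -1.17 to -0.82, adjusted p = 3.84e-30), or 1.99-fold higher in replicate 1. Ratios of at least this size occurred in 55 tested genes (12.9%). Over the 49 tested genes of the region these were the extremes in each direction, ahead of Mir668 at 1.28 and Mir381 at -0.75. Mir665 starts 167 bases after the end of Mir540, whose log2 ratio was -0.01 (interval -0.08 to 0.06), and 428 bases after that of Mir337 at -0.14 (-0.18 to -0.09). The interval of Mir665 thus lay apart from those of the hairpins next to it. Mir136 and the nearest other of the 10 genes, Mir434, at -0.21 (interval -0.27 to -0.15), also had intervals that lay apart.

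The other called genes differed by less. Mir127 was 1.16-fold higher in replicate 2 (log2 ratio 0.22, interval 0.21 to 0.23), with an adjusted p too small for the computation to hold, and ratios as large were found in 61.0% of tested genes. Mir431 was also higher in replicate 2, at a log2 ratio of 0.08 (interval 0.04 to 0.12). Mir434, Mir337 and Mir673, at -0.21, -0.14 and -0.14, were higher in replicate 1, but Mir337 and Mir673 were not called when scaled by total counts. Mir493 at -0.22 (interval -0.56 to 0.12), Mir433 at -0.03 (-0.06 to -0.00094) and Mir540 were not called, and by total counts Mir433 and Mir540 were called higher in replicate 2, at 0.07 and 0.09. Set against Mir127 in the same library, which needs no scaling, Mir433 stood at 11.2% of it in replicate 2 and 13.3% in replicate 1, Mir431 at 6.90% and 7.58%, and Mir337 at 6.03% and 7.70%. Mir665 was the only one of the 9 that stood higher against Mir127 in replicate 2, at 0.414% there and 0.176% in replicate 1.

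**Figure D3:**
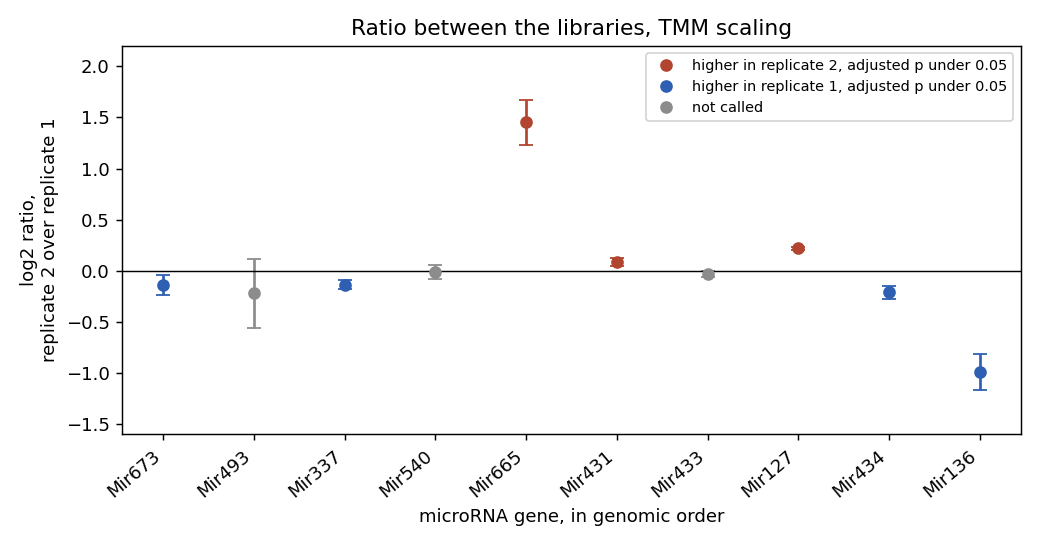
Log2 ratio of replicate 2 over replicate 1 for each gene in genomic order, with exact 95% counting intervals, red where higher in replicate 2, blue where higher in replicate 1 and grey where not called. Mir665 lies at 1.45 and Mir136 at -0.99, while the other 8 lie between -0.22 and 0.22.

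The base composition of the mature products was set beside these ratios. Averaged over both arms, the mature products of Mir136 had the lowest GC content of the 10 genes, 36.4%. Those of Mir665, at 61.3%, had the next to highest, after Mir673 at 62.2%, whose log2 ratio was -0.14. The average gives both arms equal weight, since the counts do not tell them apart. Across the 10 genes the GC content and the log2 ratio correlated at r = 0.718 (Pearson) and rho = 0.638 (Spearman), and without Mir136 and Mir665 r was 0.492 and rho 0.431. Across the 379 tested genes with a RefSeq mature sequence r was 0.155 and rho 0.176, and over the 165 of them with a mean of at least 100 CPM r was 0.0338 and rho 0.157. The 379 genes had median log2 ratios of -0.14, -0.03 and 0.04 in the lowest, middle and highest of 3 classes of GC content. All these genes share the same libraries, so the values are a description, and the part of base composition in the ratios was not tested.

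Among the 10 genes 2 overlap an annotated hairpin on the opposite strand. Mir337 contains Mir3544 (109585813-109585873), which had 116 counts in replicate 2 and 150 in replicate 1. Mir136 lies within Mir3071 (109595318-109595397), which had 1 count in each library, at or below the limit of 3 counts. Every read counted for Mir337 and Mir136 on their own strand overlapped the partner too, since the partner's opposite-strand count was the same number. The column that ignores strand therefore left these reads uncounted as ambiguous, and lists Mir136 at 0 in both libraries and Mir337 at 9 counts in replicate 2 and 24 in replicate 1.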

How the data were processed

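For each library the authors deposited raw read counts for 2202 microRNA genes in 3 columns without a header, on mm10 with GENCODE M21 per the description deposited beside the tables. By values and layout these are reads regardless of strand, sense reads (the larger stranded total, used here) and opposite-strand reads. Adapter trimming is named per the labels' protocols, while aligner and counter were not given in any source used here. The first 4 rows name no gene and took 54.6% of reads in replicate 2 and 51.2% in replicate 1. They stayed out of library sizes, and reads with several alignments are among them. A count covers a whole hairpin gene, so the arms are not told apart. Ligation of adapters depends on the sequence of a small RNA, which counts do not correct.

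All identifiers matched GENCODE M21. RefSeq coordinates and hairpins of the 10 genes were the same as GENCODE's. CPM is counts per 1000000 of the library's total over genes. Log2 ratios are replicate 2 over replicate 1 with 0.5 counts added, tested as described above (edgeR 4.0.16 for TMM, R 4.3.3, scipy 1.17.1). The test was also run on simulated counts that varied by counting error only. That check therefore could not bear on the spread between libraries. With 1 group no quasi-likelihood test was possible. Alternatives were total counts, DESeq2 1.42.0 size factors, no filter, the either-strand column, all reads as the denominator, a minimum of 100 counts, and each library alone. The binomial p-values and intervals hold counting error only and no estimate of the spread between libraries. All 10 genes are named, with genes overlapping them and the 3 of the region nearest to Mir127 in level. Other names were chosen after their values were seen. The genes and lists were chosen with earlier results of these data known.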

Additional observations from a re-analysis of the deposited data

Results flagged for a closer look

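Counts on the strand opposite to a gene are outside the comparisons above. For Mir337 they were above the 3 counts that a count of 0 allows, at 125 in replicate 2 and 174 in replicate 1, or 1.58% and 1.55% of the reads over this hairpin. Of these reads 116 and 150 were counted for Mir3544, and the 9 and 24 left lay outside it. The other 9 genes had 0 or 1 opposite-strand count in each library.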

How the results depend on the processing

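The counts of called genes depended on scaling by total counts: 5 genes were then higher in replicate 2 and 2 in replicate 1, in place of 3 and 4. Under that scaling Mir433 and Mir540 reversed to log2 ratios of 0.0707 and 0.0894, and DESeq2 size factors gave Mir540 4.7e-05. Those counts stayed within 1.5 times with DESeq2 size factors, without the filter and on either strand. In the either-strand column Mir433 at -0.04 was called higher in replicate 1, and Mir136 had no count. Mir337 was left there with 9 counts in replicate 2 and 24 in replicate 1, the same numbers as its opposite-strand reads outside Mir3544. Its ratio of -1.0 (adjusted p = 0.128, not called) and level of 2.2 CPM in that column thus describe opposite-strand reads. They do not bear on the call of Mir337 on its own strand. With all reads in the tables as the denominator, the 10 genes held 1.11% in place of 2.37%. The share ran from 2.16% to 2.58% with 1 library left out, where no test remains. All 10 had at least 100 counts in both libraries. No paired analysis was possible because there is only 1 group. Depth limits Mir493 most.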

Other observations

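Of the 10 genes, those opposite Rtl1 had hairpins of 40.3% to 60.4% GC, and those between Meg3 and Rtl1 of 52.6% to 61.5%. The median was 51.7% over 1005 mouse hairpins in the RefSeq table. The arms of a hairpin mostly had little in common when read in the same direction, with a longest shared run of 3 to 6 bases in 8 of the 10 genes. In Mir431 both arms contained GUCUUGCAGG, a run of 10 bases, and in Mir434 both contained UUUGAACCA, a run of 9 bases.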
